A study of Mus musculus with 10 samples.

Results

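The red cell membrane and skeleton genes Sptb, Ank1, Slc4a1, Epb41, Epb42, Rhag, Kel and Add2 were followed in mouse R2 erythroid progenitors that carried 1 or both functional alleles of Ddx41 and of Trp53. These 8 genes were chosen by symbol from the 24421 genes listed in the count table, and all 8 passed the filter on low counts that left 11846 genes for testing. Epb41 and Epb42 were listed under older symbols and were matched through RefSeq synonyms. R2 cells are CD71+Ter119+ bone marrow cells, which carry both the transferrin receptor and the erythroid antigen Ter119.

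The red cell membrane is held in shape by a mesh of spectrin tetramers on its inner face. Ankyrin fastens this mesh to the anion exchanger band 3, and protein 4.1 and adducin tie spectrin to short actin filaments. Band 3, the Rh-associated glycoprotein and protein 4.2 form a membrane complex with ankyrin, and the messages for these proteins build up while erythroblasts mature. Inherited defects of spectrin, ankyrin, band 3, protein 4.1 or protein 4.2 cause spherocytic or elliptocytic anemia.

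Bone marrow cells from donors with Rosa-CreERT2, a tamoxifen-activated Cre expressed from a ubiquitous promoter, were transplanted into lethally irradiated BoyJ mice. All recipients, controls included, were given 1 mg of tamoxifen per injection on 5 consecutive days in 2 rounds, and R2 cells were sorted 8 weeks post-transplant. The 4 donor genotypes after tamoxifen were Ddx41+/+ Trp53+/+ (3 mice, numbers 10, 11 and 12), Ddx41+/- Trp53+/+ (2 mice, numbers 32 and 34), Ddx41+/+ Trp53+/- (3 mice, numbers 22, 23 and 24) and Ddx41+/- Trp53+/- (2 mice, numbers 46 and 47). In the Ddx41+/- donors 1 allele was floxed and was excised by Cre in every cell type reached. The Trp53+/- donors were bred from Trp53-knockout mice, so that 1 functional Trp53 allele was missing before tamoxifen. The sort by CD71 and Ter119 does not separate donor cells from surviving host cells. The name of the deposited table says that libraries 35 and 45 were removed from it. The analysed mice whose numbers begin with 3 were Ddx41+/- Trp53+/+ and those whose numbers begin with 4 were Ddx41+/- Trp53+/-, the groups of 2 mice, but no label gives the genotype of the removed libraries or the reason, and they were not analysed here. Each library came from 1 mouse and held between 7866648 (mouse 34) and 20283930 (mouse 11) counts. The ages and sexes of the mice and the batches of the libraries are not given in the sources used here.

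Both manipulated genes followed the labels. Ddx41 was at 25.1, 21.9 and 22.6 CPM (counts per 1000000 of the scaled library) in Ddx41+/+ Trp53+/+ mice, at 26.6, 22.9 and 23.2 CPM in Ddx41+/+ Trp53+/- mice, at 13.8 and 16.5 CPM in Ddx41+/- Trp53+/+ mice and at 12.5 and 15.6 CPM in Ddx41+/- Trp53+/- mice. All 4 Ddx41+/- mice were below all 6 Ddx41+/+ mice. Over both Trp53 genotypes Ddx41 was lower by a log2 fold change of -0.70 (95% interval -0.93 to -0.48, edgeR's quasi-likelihood test, adjusted p = 0.0173). The call was lost in 4 of 18 other settings, over which the log2 fold change stayed between -0.76 and -0.63. Trp53 was between 40.3 and 46.2 CPM in the 5 Trp53+/- mice and between 57.4 and 68.1 CPM in the 5 Trp53+/+ mice, without overlap, with a log2 fold change of -0.48 over both Ddx41 genotypes (95% interval -0.62 to -0.33, adjusted p = 0.00355), which is short of the 1.5-fold limit used for a call.

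The membrane messages were among the most abundant in the deposited counts, which held almost no globin counts (1.45 to 5.49 CPM for 7 globin genes together) and no mitochondrial gene, so that ranks and shares hold within this limit. Slc4a1, the gene of band 3, had more counts than any other of the 24421 genes in the table and took 2.78% of all counts, and Sptb, Epb41 and Ank1 had ranks 10, 12 and 16. The 8 genes together took between 4.52% (mouse 46) and 4.98% (mouse 22) of a library. Read as density, in CPM per kb of merged exons, Slc4a1 stood at 5710 ± 312 (SD over all 10 mice, which pools the 4 genotypes), more than any other member in every mouse.

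Below Slc4a1 the order per kb was Kel, the Kell blood group endopeptidase, at 496 ± 49.1 CPM per kb, and Rhag, the Rh-associated glycoprotein, at 494 ± 28.7 CPM per kb. Kel was above Rhag in 5 of 10 mice, so that this pair could not be ordered. Sptb, the erythroid beta-spectrin, followed at 433 ± 29.6 CPM per kb and was below Rhag in 10 of 10 mice, although the ranges of these genes overlapped. Epb42, the gene of protein 4.2, was at 317 ± 14.7 CPM per kb, Epb41, the gene of protein 4.1, at 301 ± 19.7 CPM per kb and Ank1, the erythroid ankyrin, at 295 ± 12.2 CPM per kb. Their ranges overlapped, with Epb42 above Epb41 in 8 of 10 mice and Epb41 above Ank1 in 8 of 10 mice. Add2, the beta-adducin of the actin junctions, was lowest at 135 ± 5.82 CPM per kb and was below Ank1 in 10 of 10 mice. Merged exons overstate the length of a message with many alternative exons, such as that of Epb41, and the order per kb would move with the isoforms used.

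The 250 bases before the RefSeq transcription start (GRCm38.p6) are shown for 4 members. Kel and Epb42 were each highest in mouse 23, as was Add2, whose window is not printed. The level of Slc4a1 was positively correlated with those of 6 of its 7 partners, among them Sptb and Rhag. Neither trait sets the members shown apart from the others. Capitals mark AGATAA, a form of the site that GATA factors bind, and CACCC, the core of the sites that erythroid KLF1 binds, read on both strands, so that TTATCT and GGGTG are the same letters on the other strand. No match of one motif overlapped a match of the other.
Kel, chr6:41704326-41704575, minus strand: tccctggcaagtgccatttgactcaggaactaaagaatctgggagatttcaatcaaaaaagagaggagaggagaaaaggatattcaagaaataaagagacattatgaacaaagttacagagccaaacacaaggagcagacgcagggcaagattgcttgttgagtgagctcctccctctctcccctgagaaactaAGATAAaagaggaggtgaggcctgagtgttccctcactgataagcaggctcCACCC
Epb42, chr2:121036878-121037127, minus strand: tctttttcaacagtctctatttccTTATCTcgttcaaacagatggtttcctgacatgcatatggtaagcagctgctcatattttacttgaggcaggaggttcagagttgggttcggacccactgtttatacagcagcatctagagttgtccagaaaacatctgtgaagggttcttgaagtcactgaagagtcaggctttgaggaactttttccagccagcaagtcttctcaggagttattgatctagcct
Sptb, chr12:76710548-76710797, minus strand: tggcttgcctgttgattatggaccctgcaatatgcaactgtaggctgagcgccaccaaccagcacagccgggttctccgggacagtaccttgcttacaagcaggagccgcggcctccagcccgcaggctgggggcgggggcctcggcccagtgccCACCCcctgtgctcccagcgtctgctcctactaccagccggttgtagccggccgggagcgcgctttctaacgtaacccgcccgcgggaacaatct
Rhag, chr17:40810899-40811148, plus strand: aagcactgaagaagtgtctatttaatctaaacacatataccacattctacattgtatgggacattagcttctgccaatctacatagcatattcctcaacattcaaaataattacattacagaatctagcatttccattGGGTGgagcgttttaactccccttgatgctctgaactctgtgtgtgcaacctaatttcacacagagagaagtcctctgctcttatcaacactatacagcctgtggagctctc

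RefSeq windows were matched for 6 of the 8 members, and the set of windows used here held none for Ank1 and Slc4a1. AGATAA was found in the windows of 2 of these 6 members, Kel (first base at -56 from the start) and Epb42 (at -226), and it was present in 9.99% of all 32851 windows of this length. CACCC was found in the windows of 4 of the 6 members, Kel (at -5), Sptb (at -95), Rhag (at -112) and Add2 (at -131), and in 52.0% of all windows. Kel was the only member with both motifs in the window, and none of the 3 windows of Epb41 held either one. The windows of Epb41 are not printed, although its level was also positively correlated with that of Slc4a1 (Pearson's r = 0.48). These are matches of letters and no measure of binding.

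**Figure D1:**
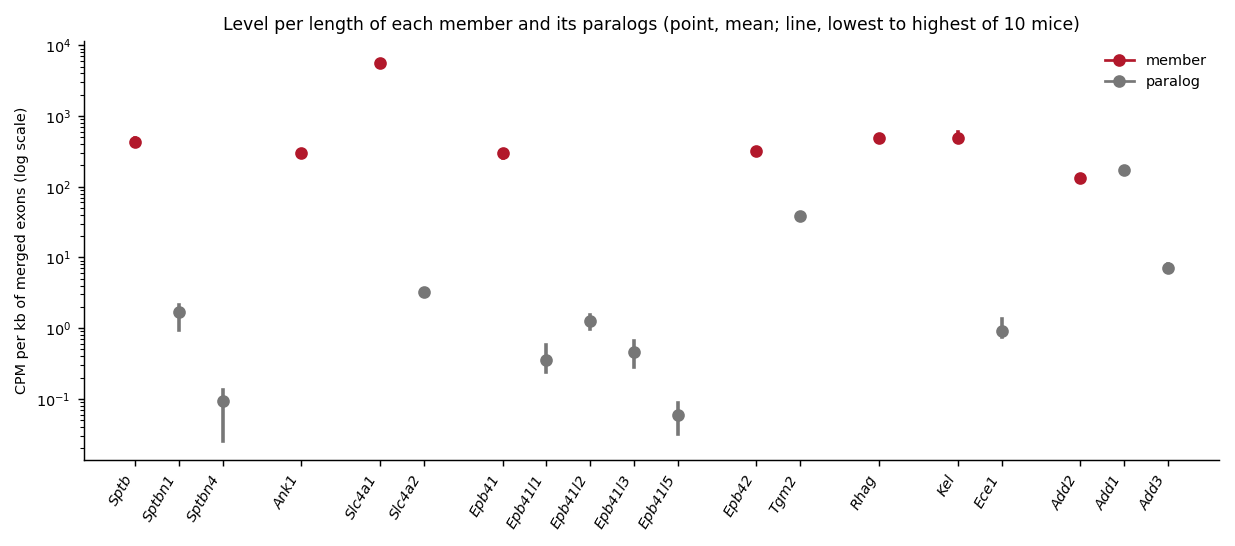
Level per length (CPM per kb of merged exons, log axis) of the 8 members (red) and of the paralogs with more than 3 counts in every library (gray), with points for the mean and lines for the lowest to highest of 10 mice. Slc4a1 stands at 5710 CPM per kb, and Add1 is the only paralog drawn above its member, at 171 against 135 CPM per kb for Add2.

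Each member was more abundant per kb than the paralogs listed for it, except in adducin. Rhd was listed with the other membrane genes and was not set against Rhag. The ubiquitous beta-spectrin Sptbn1 was at 1.69 CPM per kb, and Sptb exceeded it 256-fold (192-fold to 445-fold in single mice). Slc4a2, the exchanger of most other tissues, was at 3.27 CPM per kb, 1747-fold below Slc4a1. The other ankyrins Ank2 and Ank3 had at most 12 and 3 counts in a library. Of the protein 4.1 relatives, Epb41l2 was the highest at 1.27 CPM per kb, 237-fold below Epb41, followed by Epb41l3 at 0.462, Epb41l1 at 0.353 and Epb41l5 at 0.0602 CPM per kb.

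The remaining paralogs were mostly near the limit of counting. Epb41l4a had no count in any library, which allows up to 3 counts per library, and Sptbn4, Slc4a3, Rhbg, Rhcg and Mme had at most 21, 6, 2, 13 and 7 counts in a library. Ece1, a relative of Kel, was at 0.907 CPM per kb. Tgm2, a transglutaminase of the family to which the inactive enzyme protein 4.2 belongs, was at 38.1 CPM per kb on average and was 8.32-fold below Epb42. Sptan1, the non-erythroid alpha-spectrin, was at 3.06 CPM per kb. Add1, the alpha-adducin that pairs with Add2, was above Add2 at 171 ± 5.94 CPM per kb, with Add2 at 0.790-fold of Add1 (0.728-fold to 0.847-fold in single mice), and Add3, the gamma-adducin, was 18.7-fold below Add2. Of the 20 paralogs, 13 passed the filter on low counts, and none of them was called in any of the 7 comparisons.

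**Figure D2:**
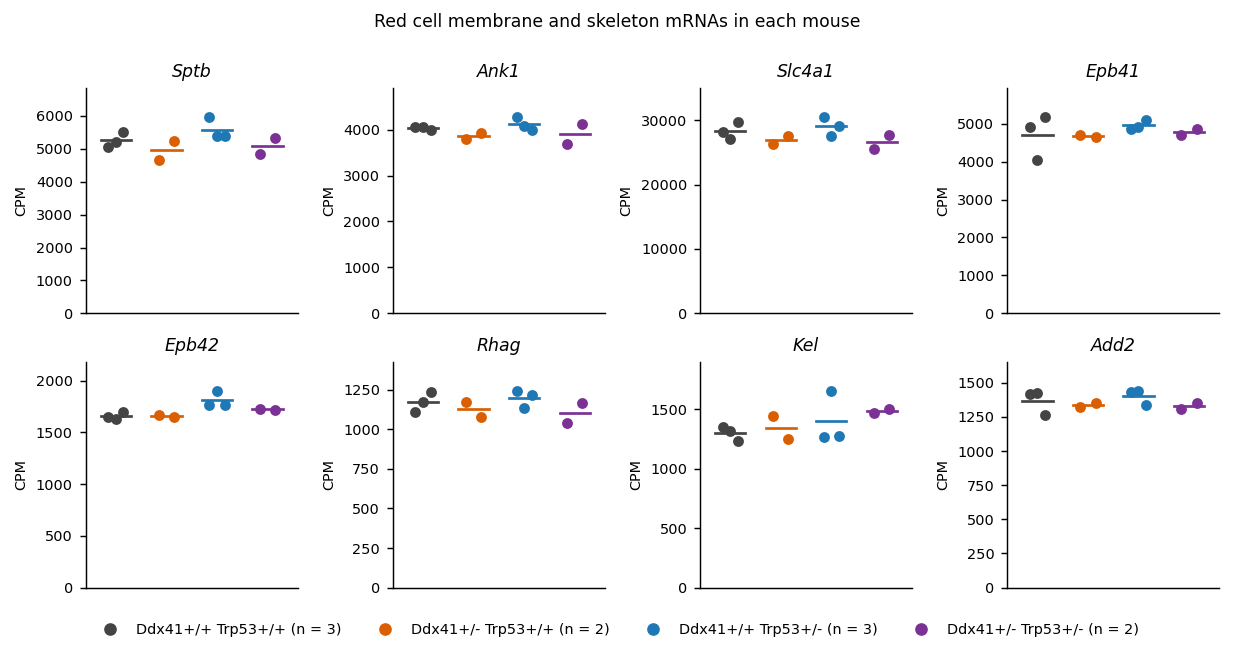
CPM of each member in each mouse (points) with the mean of each genotype (lines; 3, 2, 3 and 2 mice), on axes that start at 0. Genotypes that differ in a single gene overlap in every comparison for Slc4a1, Epb41, Rhag and Add2, but not in each for Sptb, Ank1, Epb42 and Kel. The highest Kel value is that of mouse 23 (1651 CPM) and the lowest Epb41 value is that of mouse 11 (4038 CPM).

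Whether loss of 1 Ddx41 allele altered the membrane program was asked first. No member passed the test in any comparison of the Ddx41 genotypes. With Trp53+/+, 0 of 8 members were called at an adjusted p under 0.05 and a fold change over 1.5 (0.540% of all tested genes were called), and 0 of 8 had an unadjusted p under 0.05 (9.64% of all tested genes). With Trp53+/-, 0 of 8 were called (0.0422% of all tested genes) and 0 of 8 had an unadjusted p under 0.05 (3.75%). Over both Trp53 genotypes, 0 of 8 were called (0.110%) and 1 of 8, Slc4a1, had an unadjusted p under 0.05 (8.98%). DESeq2's Wald test called 0 of 8 members in any of the 7 comparisons described here, against 2.19% of all tested genes called in at least 1 of them.

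Slc4a1 (chr11:102348824-102366203) was at 28253, 27161 and 29694 CPM in Ddx41+/+ Trp53+/+ mice and at 26283 and 27525 CPM in Ddx41+/- Trp53+/+ mice. It was at 30512, 27555 and 29107 CPM in Ddx41+/+ Trp53+/- mice and at 25470 and 27721 CPM in Ddx41+/- Trp53+/- mice. The lowest value was that of a Ddx41+/- mouse and the highest that of a Ddx41+/+ mouse, and the genotypes overlapped on either Trp53 background. Over both Trp53 genotypes the log2 fold change of Slc4a1 was -0.10 (95% interval -0.20 to -0.01, edgeR, adjusted p = 0.527), which did not pass the test.

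Rhag (chr17:40811126-40840754), whose product transports ammonium and carries the Rh proteins, ranged from 1037 CPM (mouse 46) to 1240 CPM (mouse 22), and its log2 fold change over both Trp53 genotypes was -0.09 (95% interval -0.20 to 0.02). In bulk RNA, fewer cells of a type and less of a message per cell cannot be told apart, and this holds for each value given here.

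Among the skeleton genes, Sptb (chr12:76580488-76710547) was at 5049, 5209 and 5507 CPM in Ddx41+/+ Trp53+/+ mice and at 4668 and 5248 CPM in Ddx41+/- Trp53+/+ mice, with overlap. It was at 5970, 5378 and 5393 CPM in Ddx41+/+ Trp53+/- mice and at 4855 and 5342 CPM in Ddx41+/- Trp53+/- mice, where both Ddx41+/- mice lay below the 3 others. Its log2 fold change over both Trp53 genotypes was -0.11 (95% interval -0.22 to 0.00, adjusted p = 0.565), the most negative of the 8 members.

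Ank1 (chr8:22974844-23150497) was at 4051, 4048 and 3993 CPM in Ddx41+/+ Trp53+/+ mice and at 3786 and 3918 CPM in Ddx41+/- Trp53+/+ mice, which did not overlap. With Trp53+/- it was at 4275, 4075 and 3995 CPM in Ddx41+/+ mice and at 3694 and 4115 CPM in Ddx41+/- mice, which overlapped. The log2 fold change over both Trp53 genotypes was -0.07 (95% interval -0.16 to 0.02, adjusted p = 0.667).

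Epb41 (chr4:131923413-132075321) ranged from 4038 CPM (mouse 11) to 5178 CPM (mouse 12), both Ddx41+/+ Trp53+/+ mice, with a log2 fold change of -0.03 over both Trp53 genotypes (95% interval -0.15 to 0.09). Without mouse 12 this value was 0.003. Add2 (chr6:86028681-86124409) ranged from 1268 CPM (mouse 12) to 1438 CPM (mouse 23), with a log2 fold change of -0.05 (95% interval -0.15 to 0.05). Epb42 (chr2:121017891-121037072), whose product steadies the contact of band 3 with ankyrin, had a log2 fold change of -0.03 (95% interval -0.12 to 0.06).

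Kel (chr6:41686330-41704339) was the 1 member with a positive value. It was at 1351, 1319 and 1236 CPM in Ddx41+/+ Trp53+/+ mice, at 1440 and 1246 CPM in Ddx41+/- Trp53+/+ mice, at 1267, 1651 and 1274 CPM in Ddx41+/+ Trp53+/- mice and at 1467 and 1501 CPM in Ddx41+/- Trp53+/- mice. The Ddx41 genotypes overlapped on either Trp53 background, and mouse 23, a Ddx41+/+ Trp53+/- mouse, was the highest of all. The log2 fold change over both Trp53 genotypes was 0.07 (95% interval -0.08 to 0.21, adjusted p = 0.817), and without mouse 23 it was 0.13 (adjusted p = 0.418).

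In all, 7 of 8 members had a negative log2 fold change for Ddx41+/- over both Trp53 genotypes, with a median of -0.06, while 5908 of 11846 tested genes were negative, with a median of 0.0004. This split of 7 and 1 was seen under the other settings run, except that it became 6 and 2 without mouse 12, where Epb41 turned positive. With Trp53+/+ 6 of 8 members were negative (median -0.04) and with Trp53+/- 7 of 8 (median -0.08), while the medians of all tested genes were 0.001 and -0.005. The split with Trp53+/+ moved with single mice and settings, with 4 negative and 4 positive without mouse 34, 8 and 0 without mouse 32, and 5 and 3 without mouse 12, under library totals and with 1 surrogate variable, and 7 and 1 with no filter on low counts. That with Trp53+/- became 6 and 2 without mouse 46. The 2 Ddx41 genotypes did not overlap in 1 of 8 members with Trp53+/+ (Ank1), against 24.9% of all tested genes, and in 2 of 8 with Trp53+/- (Sptb and Epb42), against 20.0%, so that neither count stood out from the background.

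**Figure D3:**
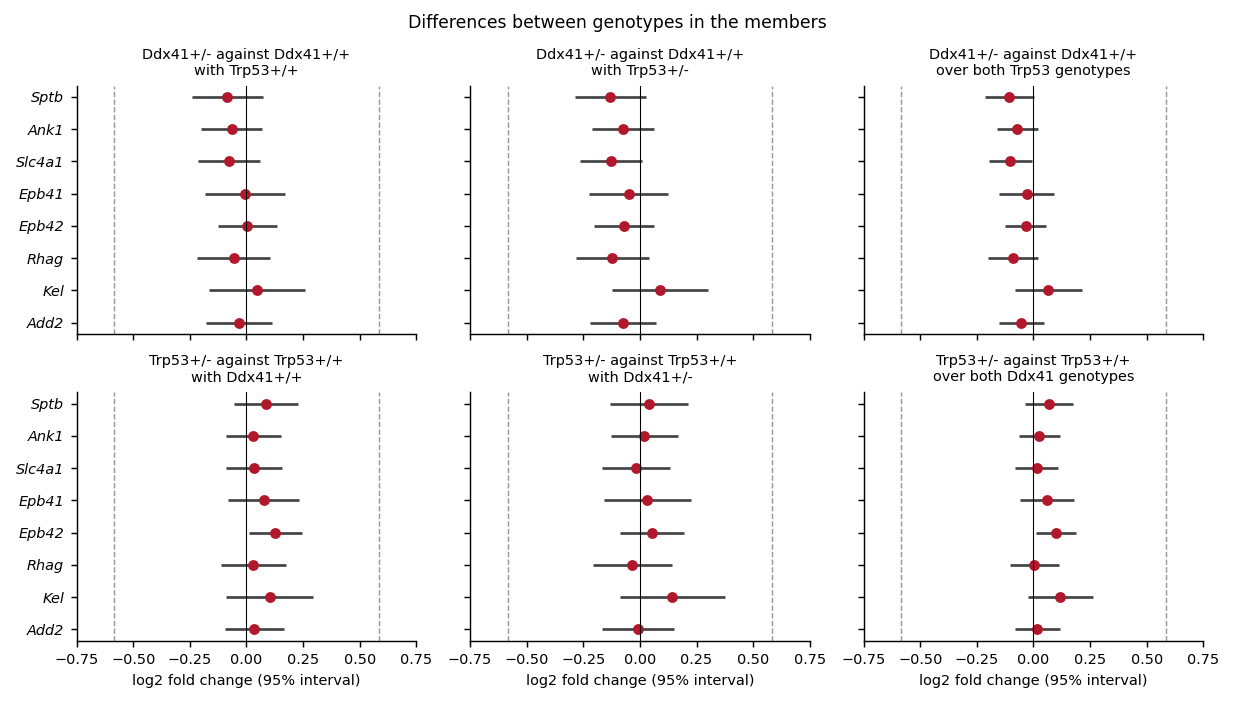
Log2 fold change of each member (points) with its 95% interval (lines) in the comparisons of the Ddx41 genotypes (upper row) and the Trp53 genotypes (lower row), with dashed lines at a 1.5-fold change in either direction. No interval reaches a dashed line, and the one that reaches farthest up is that of Kel for Trp53+/- with Ddx41+/-, at 1.30-fold.

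Loss of 1 Trp53 allele was compared in the same way. With Ddx41+/+, 0 of 8 members were called by edgeR's test (0.912% of all tested genes) and 1 of 8, Epb42, had an unadjusted p under 0.05 (9.44%). With Ddx41+/-, 0 of 8 were called (0.169%) and 0 of 8 had an unadjusted p under 0.05 (5.41%). Over both Ddx41 genotypes, 0 of 8 were called (0.287%) and 1 of 8, again Epb42, had an unadjusted p under 0.05 (11.2%).

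Epb42 was at 1647, 1630 and 1695 CPM in Ddx41+/+ Trp53+/+ mice and at 1766, 1898 and 1766 CPM in Ddx41+/+ Trp53+/- mice. It was at 1671 and 1651 CPM in Ddx41+/- Trp53+/+ mice and at 1727 and 1720 CPM in Ddx41+/- Trp53+/- mice. All 5 Trp53+/- mice were therefore above all 5 Trp53+/+ mice. The log2 fold change of Epb42 was 0.13 with Ddx41+/+ (95% interval 0.01 to 0.24, adjusted p = 0.457) and 0.05 with Ddx41+/- (95% interval -0.09 to 0.20, adjusted p = 0.981). Over both Ddx41 genotypes it was 0.10 (95% interval 0.01 to 0.19, adjusted p = 0.390), or 1.07-fold, which did not pass the test after adjustment, and without mouse 23 it was 0.07 (adjusted p = 0.641).

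Kel was higher by a log2 fold change of 0.12 in Trp53+/- mice over both Ddx41 genotypes (95% interval -0.02 to 0.26, adjusted p = 0.539), and without mouse 23 by 0.05. The 6 other members had log2 fold changes between 0.004 (Rhag) and 0.07 (Sptb). All 8 members were thus positive (median 0.04, all tested genes -0.002), but with library totals in place of TMM scaling 3 of them, Slc4a1, Rhag and Add2, turned negative, and with single mice left out up to 2 of 8 were negative. By background 8 of 8 were positive with Ddx41+/+ (median 0.05), but 5 of 8 under library totals and 7 of 8 with 1 surrogate variable or without mouse 10, 11, 12, 22 or 23. With Ddx41+/-, 5 of 8 were positive (median 0.03), but 3 of 8 without mouse 47, 7 of 8 without mouse 34 and 8 of 8 without mouse 46. The 2 Trp53 genotypes did not overlap in 1 of 8 members with Ddx41+/+ (Epb42), against 14.1% of all tested genes, and in 2 of 8 with Ddx41+/- (Epb42 and Kel), against 37.3%. The comparisons of Ddx41 with Trp53+/+ and of Trp53 with Ddx41+/+ share the 3 Ddx41+/+ Trp53+/+ mice, and their values are not independent.

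The effect of Ddx41 did not differ detectably between the Trp53 genotypes. In the test of this difference 0 of 8 members were called by edgeR's test (0.0675% of all tested genes) and 0 of 8 had an unadjusted p under 0.05 (5.01%). The difference ranged from -0.07 for Epb42 (95% interval -0.26 to 0.11 on the log2 scale) to 0.04 for Kel (95% interval -0.26 to 0.34). It was negative in 7 of 8 members (median -0.04), but in 3 of 8 without mouse 46 and in 8 of 8 without mouse 24. The value of Kel was -0.05 without mouse 34 and 0.18 without mouse 23. In the 6 comparisons of genotypes the 48 intervals of the members lay between 0.819-fold (Sptb, Ddx41 with Trp53+/-) and 1.30-fold (Kel, Trp53 with Ddx41+/-). A p that misses the threshold does not show that the genotypes were alike, but these intervals leave out a 1.5-fold change of any of the 8 messages in either direction.

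**Figure D4:**
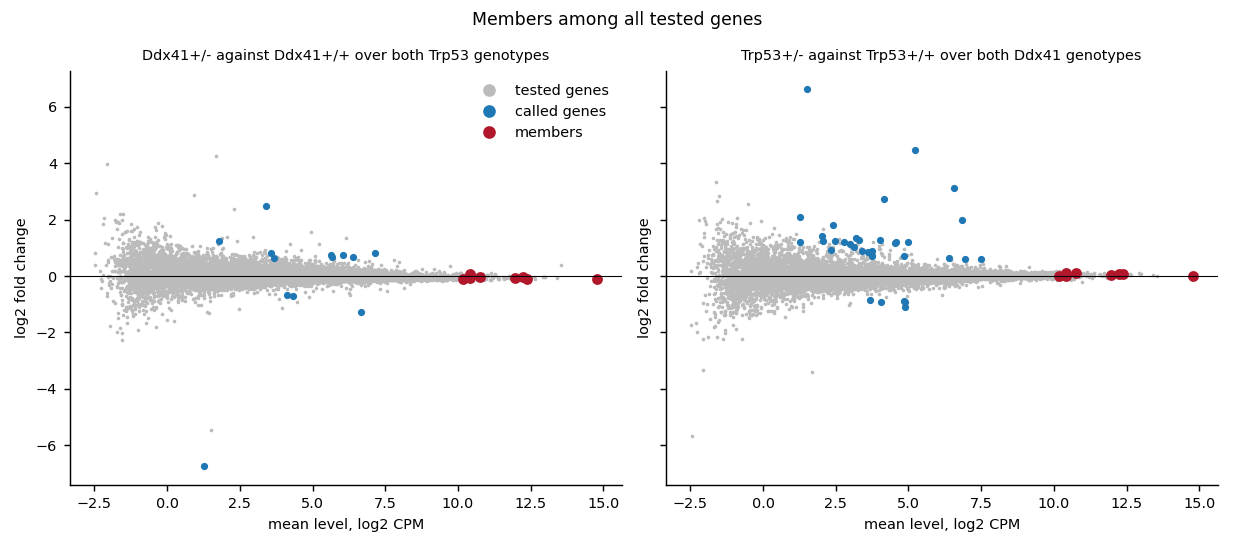
Log2 fold change against mean level (log2 CPM) of all 11846 tested genes (gray), called genes (blue) and the members (red), for Ddx41+/- over both Trp53 genotypes (left) and Trp53+/- over both Ddx41 genotypes (right). The members lie at the abundant end and close to 0, with the most negative at -0.11 (Sptb, left) and the most positive at 0.12 (Kel, right).

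The other proteins of the red cell membrane were examined with a list of 37 genes, 36 of which were tested. For Ddx41+/- over both Trp53 genotypes, 0 were called, 27 of 36 were negative and the median was -0.05. Aqp1, the water channel, had a log2 fold change of -0.01 (95% interval -0.12 to 0.10). For Trp53+/- the medians had opposite signs on the 2 backgrounds, with 26 of 36 positive with Ddx41+/+ (median 0.05) and 26 of 36 negative with Ddx41+/- (median -0.07). Over both Ddx41 genotypes 18 were positive and 18 negative, with a median of -0.001, and in the test of the difference of the Ddx41 effects 0 of 36 were called. Bcam had at most 1 count in a library and was not tested.

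Of these 36 genes, 2 were called in some comparison. Cd59a, which shields red cells from complement, was at 55.4, 40.6 and 74.4 CPM in Ddx41+/+ Trp53+/+ mice and at 100.2 and 104 CPM in Ddx41+/- Trp53+/+ mice, without overlap. Its log2 fold change was 0.85 (95% interval 0.46 to 1.25, adjusted p = 0.0493), and the call was lost in 12 of 19 other settings. With Trp53+/- its log2 fold change was 0.07 (95% interval -0.33 to 0.47), and the difference of -0.78 between the Trp53 genotypes did not pass the test (adjusted p = 0.760).

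Atp1b2, a beta subunit of the sodium pump, was at 37.9, 42.2 and 43.6 CPM in Ddx41+/+ Trp53+/+ mice and at 33.3 and 33.9 CPM in Ddx41+/- Trp53+/+ mice. It was at 25.6, 22.3 and 18.9 CPM in Ddx41+/+ Trp53+/- mice and at 15.5 and 19.3 CPM in Ddx41+/- Trp53+/- mice, so that all Trp53+/- mice were below all Trp53+/+ mice. Over both Ddx41 genotypes it fell by 0.92 on the log2 scale (95% interval -1.12 to -0.71, adjusted p = 0.000104). Atp1b2 (chr11:69599736-69605942) is the neighbor of Trp53 (chr11:69580359-69591873), and the part of this position in the result was not tested. Slc4a1 lies on the same chromosome, 32.8 Mb from Trp53.

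Other erythroid genes were measured beside the members. The erythroid factor list (9 genes, among them Zfpm1, Tal1 and Klf1) had 0 calls and a median log2 fold change of -0.04 for Ddx41+/- and 0.01 for Trp53+/- in the comparisons over both genotypes of the other gene. The 9 heme enzymes, among them Alas2 and Fech, had 0 calls and medians of -0.03 and 0.02. The 9 genes of late maturation, led by Slc25a37, Xpo7 and Bpgm, had 0 calls, with 5 of 9 negative for Ddx41+/- and a median of 0.06 for Trp53+/-. The R2 marker list (8 genes, 7 tested, among them the member Slc4a1) had 0 calls and medians of -0.05 and 0.04, and Alas2 (7007 to 8440 CPM) and Tfrc (2692 to 3458 CPM) were abundant in each library. The globin genes, the most abundant messages of such cells in general, were at or near 0 in the deposited counts, with no count in any library for Hbb-bt, which allows up to 3 counts per library, and 0 calls among the 4 tested. The cause of this was not tested.

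Markers of other cells were measured beside the members. The 9 neutrophil markers summed to 4932 to 8450 CPM, led by S100a9 at 1319 to 2398 CPM, followed by Ngp and Ltf. The sums of mice 12, 24, 32 and 46 (8266 to 8450 CPM) stood apart from those of the 6 other mice (4932 to 6187 CPM). This split ran across genotypes, and none of these markers was called. For Ddx41+/-, 7 of 9 log2 fold changes were positive with Trp53+/+ (median 0.19) and 4 of 9 with Trp53+/- (median -0.01). For Trp53+/-, 8 of 9 were positive with Ddx41+/+ (median 0.10) and 0 of 9 with Ddx41+/- (median -0.15). The difference of the Ddx41 effects was negative in all 9 (median -0.25). The 10 macrophage and monocyte markers summed to 1302 to 1848 CPM, most of it Lyz2, with Csf1r and Vcam1 next, and 0 were called. The log2 fold changes for Ddx41+/- were negative in 6 of 10 with Trp53+/+ (median -0.13) and positive in 9 of 10 with Trp53+/- (median 0.52), and over both Trp53 genotypes all 10 were positive (median 0.16). Those for Trp53+/- were negative in 9 of 10 with Ddx41+/+ (median -0.57) and in 5 of 10 with Ddx41+/- (median 0.005), and over both Ddx41 genotypes all 10 were negative (median -0.34). By edgeR's test 8 of these 10 had an unadjusted p under 0.05 for Trp53+/- with Ddx41+/+, all lower (9.44% of all tested genes). For Ddx41+/- with Trp53+/- 5 of 10 did, all higher (3.75%). None did for Ddx41+/- with Trp53+/+ (9.64%) or for Trp53+/- with Ddx41+/- (5.41%). The 6 megakaryocyte markers (Gp9, Itga2b and Pf4 first) summed to 36.6 to 50.1 CPM, with 0 calls among the 3 tested, and the 4 T and NK markers (Nkg7, Cd3d and Cd3e first) to 3.69 to 10.7 CPM, with 0 calls among the 4 tested.

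The 8 B cell markers, led by Cd74 (142 to 324 CPM), Cd79a and Cd79b, were called in some of the comparisons. They summed to 343, 205 and 220 CPM in Ddx41+/+ Trp53+/+ mice and to between 340 and 486 CPM in the 7 other mice, so that mouse 10 lay within the range of the others. Over both genotypes of the other gene all 8 had positive log2 fold changes, with a median of 0.40 for Ddx41+/- and 0.79 for Trp53+/-. The backgrounds were unequal, since for Ddx41+/- the median was 1.02 with Trp53+/+ and -0.05 with Trp53+/- (5 of 8 negative, 0 called), and for Trp53+/- it was 1.25 with Ddx41+/+ and 0.14 with Ddx41+/- (0 called). In the test of the difference of the Ddx41 effects 0 of 8 were called. With Trp53+/+, 2 of 8 were called higher in Ddx41+/- mice (Cd79a and Ebf1), and with Ddx41+/+ 5 of 8 were called higher in Trp53+/- mice (among them Cd79a, Ebf1, Ms4a1 and Vpreb3), with Ebf1 also called over both Ddx41 genotypes (log2 fold change 1.29, adjusted p = 0.0488). This last call was lost in 11 of 18 other settings, over which the log2 fold change was 1.09 to 1.65. The calls of Cd79a and Ebf1 for Ddx41+/- were lost in 5 of 19 each (0.82 to 1.48 and 0.95 to 2.15). Of the calls for Trp53+/- with Ddx41+/+, that of Ms4a1 was lost in 7 of 19 and that of Cd79a in 1 of 19. Among the 6 early progenitor genes, led by Spi1, Myb and Myc, Myb was called higher in Trp53+/- mice with Ddx41+/+ (log2 fold change 0.84, adjusted p = 0.0159). The part of these cell markers in the values of the members was not tested.

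The Y-linked genes Ddx3y (52.1 to 68.6 CPM), Eif2s3y and Uty were expressed in every library, and none of the 5 genes of the sex marker list was called. The library of mouse 34 held the fewest counts and the largest share of Rn45s, a ribosomal RNA precursor (2.24% against 0.845% to 1.38% in the 9 other libraries). All 8 members were below their 10-mouse mean in this library, with log2 departures from -0.14 (Kel) to -0.0008 (Sptb) and a median of -0.03. The median departure was lower in mice 32 (-0.04) and 46 (-0.09).

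**Figure D5:**
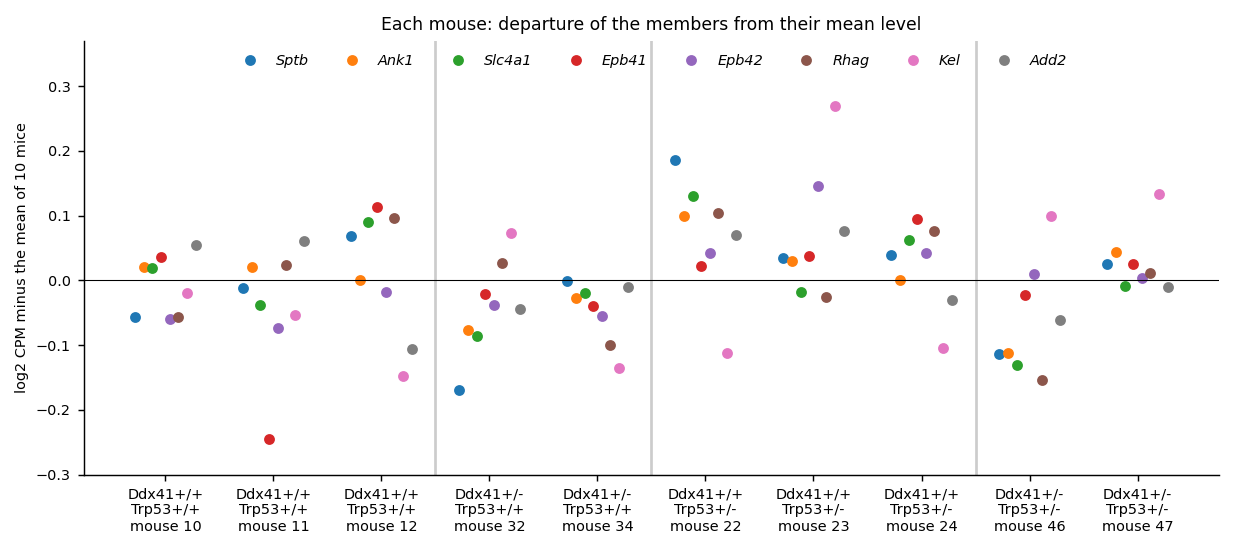
Departure of each member from its mean over 10 mice, in log2 CPM, for each mouse, grouped by genotype. In mouse 22 all members but Kel lie above 0, in mouse 34 all lie below 0, and the single farthest points are Kel in mouse 23 (0.27) and Epb41 in mouse 11 (-0.24).

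Each member varied less between mice of 1 genotype than the median tested gene. The members had ranks between 1 and 102 by counts, and their spread was not compared with that of genes of similar abundance. The SD within genotypes on the log2 scale was 0.04 for Epb42, 0.06 for Ank1, 0.07 for Add2, 0.07 for Slc4a1, 0.08 for Rhag, 0.09 for Sptb, 0.11 for Epb41 and 0.15 for Kel, against a median of 0.19 over all tested genes. Kel thus spread the most, although its counts (9812 to 27148 per library) were not the lowest of the 8. By mouse, 7 of 8 members were above their mean in mouse 22 and 6 of 8 in mice 23, 24 and 47. In mice 32 and 46, 6 of 8 were below, with Kel above the mean in both.

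Across the 10 mice, 22 of the 28 pairs of members were positively correlated in log2 CPM, with a median Pearson's r of 0.26. These values are descriptions, since the libraries share their scaling and the genotypes are pooled. Sptb and Slc4a1 were the closest pair (r = 0.87, Spearman's rho = 0.85, 10 mice), with r = 0.83 after the mean of each genotype was taken out and r = 0.79 over the 8 mice left without the 2 farthest in Sptb. Sptb and Ank1 followed (r = 0.84, rho = 0.58), with r = 0.67 over the 8 mice left without the 2 farthest in Sptb. Ank1 and Slc4a1 (r = 0.78, rho = 0.62) and Slc4a1 and Rhag (r = 0.75, rho = 0.66) rested more on single mice, with r = 0.39 without the 2 mice farthest in Ank1 and r = 0.45 without the 2 farthest in Slc4a1.

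Kel stood apart from this group. It was positively correlated with 2 of its 7 partners, Epb42 (r = 0.54, rho = 0.28) and Add2 (r = 0.23, rho = 0.21), and its r with Slc4a1 was -0.56 (rho = -0.49). The relation of Kel with Epb42 was closer with genotype means taken out (r = 0.72) but rested on few mice, since r over all mice pooled was -0.03 without the 2 mice farthest in Epb42, and that with Add2 likewise, at -0.11 without the 2 farthest in Kel. With genotype means taken out, 13 of 28 pairs were positive.

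Outside the members, the 10 tested genes with the closest course to the mean standardized level of the 8 over the 10 mice were Wwp2, Cdc25b, Hcn2, Gemin8, Pdia5, Tinagl1, Btrc, Trak2, Polr2a and Stim1, with Pearson's r between 0.92 and 0.87. Cdc25b, a phosphatase that starts mitosis, was at a mean of 1151 CPM (r = 0.92, rho = 0.93), and Trak2, an adaptor for mitochondrial transport, at 3053 CPM (r = 0.88, rho = 0.87). Hcn2 (0.772 CPM) and Pdia5 (0.501 CPM) had few counts. These genes were picked for their high correlation, and none of them was in a list used here.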

How the data were processed

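RNA of CD71+Ter119+ bone marrow cells from 10 recipient mice was sequenced on a HiSeq2500. The labels name the TruSeq Stranded mRNA kit and the study's methods the TruSeq RNA v2 kit. Per the submitters' processing notes, FastQC 0.11.7, HISAT2 2.0.5, featureCounts 1.5.2 and mm10 were used, and the strand setting and annotation behind the counts are not given in the sources used here. The values the authors deposited are unnormalized counts of reads, 1 row per gene symbol. The table held no mitochondrial gene.

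Genes were filtered with filterByExpr by genotype and scaled by TMM. All 10 libraries entered 1 quasi-likelihood fit (edgeR 4.0.16, limma 3.58.1, R 4.3.3) with a mean per genotype, and an additive fit of both genotypes gave the comparisons over both genotypes of the other gene. Two-sided p-values were adjusted by Benjamini and Hochberg over 11846 tested genes, and a call needed both an adjusted p below 0.05 and more than a 1.5-fold change. CPM were set to the TMM-scaled library of 1000000 counts. Alternatives were other scalings, other filters, library totals, globin genes left out, DESeq2 1.42.0, a likelihood ratio test, 1 surrogate variable (sva 3.50.0) and each mouse left out. They were applied to called genes outside the members after the data were seen. The fits were tested on simulated data, and no value from that test is given or used here. Python 3.11.15, numpy 2.4.6, pandas 2.3.3, scipy 1.17.1 and matplotlib 3.10.9 were used for the rest.

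Exon lengths and gene positions were taken from GENCODE M21 (GRCm38, merged exons) and the sequences before starts from RefSeq (GRCm38.p6). No 2 libraries held identical counts, and the smallest chi-square per degree of freedom between mice of 1 genotype was 5.39. Each p-value sets a difference between genotypes against the spread between these recipients, as estimated in the fit. Whether their donors were separate animals is not given in the sources used here. The intervals are those of the log2 fold changes and rest on the same spread. The depth of 7866648 to 20283930 counts left at least 8482 counts for a member in any library.

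Named were all members, Ddx41, Trp53, the paralogs, the called and the 3 most abundant genes of each list, and the 10 genes closest in course to the members. Some genes that this rule names are not reported here. The lists were other membrane genes, paralogs, heme enzymes, globins, erythroid factors, late maturation, R2 markers, early progenitor genes, sex genes and markers of B cells, T and NK cells, neutrophils, macrophages and monocytes, and megakaryocytes. Members and lists were chosen with earlier results of these data known.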

Additional observations from a re-analysis of the deposited data

Results flagged for a closer look

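In 4 of 32 groups looked at, the 8 members in each of 4 pooled genotypes of 4 to 6 mice, 1 mouse stood far from the rest, where chance gives about 1 in 20 groups and the groups share mice. Ank1 was at 4275 CPM in mouse 22, while the 5 other Ddx41+/+ mice were at 3993 to 4075 CPM, and without this mouse the log2 fold change of Ank1 for Trp53+/- with Ddx41+/+ was 0.002. Epb41 was at 4038 CPM in mouse 11, while the 5 other Ddx41+/+ mice were at 4859 to 5178 CPM. Without mouse 11 the log2 fold change of Epb41 was -0.07 for Ddx41+/- and 0.004 for Trp53+/- over both genotypes of the other gene. Epb42 was at 1898 CPM in mouse 23, while the other Trp53+/- mice were at 1720 to 1766 CPM. Kel was at 1651 CPM in mouse 23, while the 5 other Ddx41+/+ mice were at 1236 to 1351 CPM. Without mouse 23 the log2 fold change of Kel for Ddx41+/- with Trp53+/- was 0.22 (edgeR's test, adjusted p = 0.686).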

How the results depend on the processing

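No member was called under any alternative, and the lowest adjusted p of a member was 0.302 (DESeq2's Wald test). Of 1040 member values under the alternatives 62 changed sign, none with an adjusted p under 0.05. With library totals in place of TMM, the median log2 fold change of the members was -0.03818 for Ddx41+/- with Trp53+/- and 0.0214 for Trp53+/- with Ddx41+/+. Under this scaling Ank1 turned to -0.004803 for Trp53+/- with Ddx41+/+, and for Trp53+/- over both Ddx41 genotypes Slc4a1 turned to -0.01017, Rhag to -0.0204 and Add2 to -0.00726. With 1 surrogate variable Rhag turned to -0.01906 in the last comparison. The causes of these changes were not tested.

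With each mouse left out, the median of the members ranged from -0.1156 to -0.04279 for Ddx41+/- with Trp53+/-, from -0.02433 to 0.05127 for Trp53+/- with Ddx41+/- and from -0.0841 to 0.01468 for the difference of the Ddx41 effects. Kel ranged from -0.06818 (without mouse 32) to 0.1471 for Ddx41+/- with Trp53+/+ and from -0.0529 to 0.1784 for the difference of the Ddx41 effects. Epb41 ranged from -0.06817 to 0.002754 for Ddx41+/- over both Trp53 genotypes, and Rhag from -0.112 to 0.0437 for Trp53+/- with Ddx41+/-. For Trp53+/- over both Ddx41 genotypes Slc4a1 ranged from -0.008646 to 0.03321, Rhag from -0.01967 to 0.03191 and Add2 from -0.01341 to 0.0337. A group left with 1 mouse was assumed to vary like the other genotypes.

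The number of genes called depended on the setting, and its highest values were those with the unadjusted in place of the adjusted p. It was 64 for Ddx41+/- with Trp53+/+ (44 to 540 under other settings, 13 to 103 with a mouse left out), 5 with Trp53+/- (2 to 171, 1 to 10) and 13 over both Trp53 genotypes (3 to 259, 2 to 42). It was 108 for Trp53+/- with Ddx41+/+ (63 to 535, 35 to 115), 20 with Ddx41+/- (18 to 251, 13 to 24) and 34 over both Ddx41 genotypes (15 to 395, 20 to 79), and 8 for the difference of the Ddx41 effects (7 to 378, 8 to 12). Outside the members, the call of Ddx41 over both Trp53 genotypes was lost in 4 of 18 alternatives, with log2 fold changes of -0.76 to -0.63. That of Ebf1 for Trp53+/- over both Ddx41 genotypes was lost in 11 of 18 (1.09 to 1.65). Those of Cd79a and Ebf1 for Ddx41+/- with Trp53+/+ were lost in 5 of 19 each (0.82 to 1.48 and 0.95 to 2.15). The calls for Trp53+/- with Ddx41+/+ were lost in 7 of 19 alternatives for Ms4a1, 2 of 19 for Myb and 1 of 19 for Cd79a. With 2 mice in each Ddx41+/- genotype the highest upper bound of a member interval was 1.30-fold (Kel). No paired analysis was made. The genotypes share no mouse numbers, and the sources used here do not say which mice shared a litter or a batch.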
